A study of Homo sapiens with 24 samples.

Results

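The 48 genes described here encode the proteins that license replication origins and copy DNA at the fork. They were chosen by symbol, as a list of origin, fork, polymerase and clamp genes, with earlier results of these data known. All 48 symbols were found among the 23207 gene symbols of the deposited tables. By role, 11 act in origin licensing, 8 in activation of the helicase, 9 belong to the replicative polymerases and primase, 10 to the sliding clamp, its loaders and Okazaki fragment processing, 3 form the protein that coats single-stranded DNA, and 7 protect the fork, deposit histones behind it or turn over CDT1.

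In G1 phase the origin recognition complex, CDC6 and CDT1 load the MCM2-7 helicase onto DNA, and geminin (GMNN) binds CDT1 and blocks further loading once S phase has begun. The kinase CDC7 with its activator DBF4, together with MCM10, CDC45 and the GINS complex, turns the loaded rings into working helicases. Primase and polymerase alpha then start the strands, which polymerases epsilon and delta extend on the PCNA clamp. Many of these genes are transcribed by E2F factors when cells pass from G1 into S phase, and in hormone-sensitive prostate cancer cells androgen stimulates that passage.

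RNA sequencing of 24 libraries covered LNCaP cells, a prostate cancer line that responds to androgen, in 8 groups of 3. All cells carried a lentiviral short hairpin RNA, which was introduced at 10 infectious particles a cell and kept under puromycin, first 1 µg/ml and then 0.5 µg/ml. The hairpin was either a non-targeting control (NTC) or was directed against SIRT1, a deacetylase that uses NAD. The groups NTC and shSIRT1 grew in medium with fetal bovine serum (FBS), which contains androgen. In the other 6 groups, NTC cells and a SIRT1 knockdown named 10 spent 48 h in FBS medium and 24 h in charcoal-stripped serum, from which androgen is removed, and then 24 h with vehicle, with 1 nM dihydrotestosterone (DHT, an androgen), or with 1 nM DHT and 10 µM enzalutamide, an antiandrogen that binds the androgen receptor. The labels call the knockdown lines stable clones and do not say whether shSIRT1 and 10 carry the same hairpin, so each knockdown is 1 line of unstated relation to the other. Nothing says whether the 3 libraries of a group came from separate cultures, so p-values measure the spread between these libraries, which may be technical.

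Libraries held 11894000 to 14196200 counts in FBS and 25236300 to 35108300 in stripped serum, and the 48 genes took 0.118 to 0.441% of them. SIRT1 read 36.8 to 40.0 CPM (counts scaled to the library's total) in NTC and 7.21 to 8.68 in shSIRT1 cells in FBS, and 46.6 to 61.4 in NTC and 13.1 to 21.4 in knockdown 10 cells in stripped serum. KLK3, which encodes the androgen-induced prostate-specific antigen, rose 9.37-fold with DHT in NTC cells (edgeR quasi-likelihood test, adjusted p = 3.96e-10). In knockdown 10 cells it rose 15.7-fold (adjusted p = 4.58e-11), and the 2 responses did not differ by the edgeR interaction test (adjusted p = 0.180). KLK3 was 3.83-fold lower in shSIRT1 than in NTC cells in FBS. In stripped serum it was lower in knockdown 10 than in NTC cells, from 2.52-fold under DHT to 4.23-fold with vehicle. The 6 luminal prostate markers summed to 2499 to 3134 TPM (a unit scaled to transcript length and to the library's total) in every library, against 7.84 to 45.5 for the 5 markers of basal cells or other prostate lines, 5.08 to 10.8 for 6 fibroblast markers and 0.60 to 4.87 for 7 leukocyte and endothelial markers. The FBS libraries numbered 1 and 2 of each group were close to each other and stood apart from number 3, in which the 48 genes summed to 2544 TPM in NTC and 2574 TPM in shSIRT1 cells, against 3273 to 3592 TPM in the other 4. The 3 libraries of knockdown 10 cells under DHT also differed, with sums of 1582, 1147 and 1404 TPM. In bulk RNA, fewer cells in S phase and less of an RNA per cell cannot be told apart.

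The 48 genes followed a common order across the stripped-serum groups. All 48 had their highest mean in NTC cells under DHT, and 42 had the second highest in knockdown 10 cells under DHT. The lowest mean lay in knockdown 10 cells with vehicle or with DHT and enzalutamide for 47 of 48. Summed TPM was 2514 ± 72.3 (SD, n = 3) in NTC cells under DHT and 1378 ± 219 in knockdown 10 cells under DHT. It was 1204 ± 66.5 with vehicle and 1146 ± 81.8 with DHT and enzalutamide in NTC cells, and 872 ± 27.1 and 859 ± 29.2 in knockdown 10 cells. Neither pair of vehicle and enzalutamide means differed by more than the spread between its libraries. In FBS the sums were 3036 ± 426 in NTC and 3245 ± 581 in shSIRT1 cells, which overlapped. Gene length exceeded effective length by 50 bases in the FBS tables and by 224 to 252 bases in the stripped-serum tables, so the sets were quantified differently and no test was made between their levels.

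**Figure D1:**
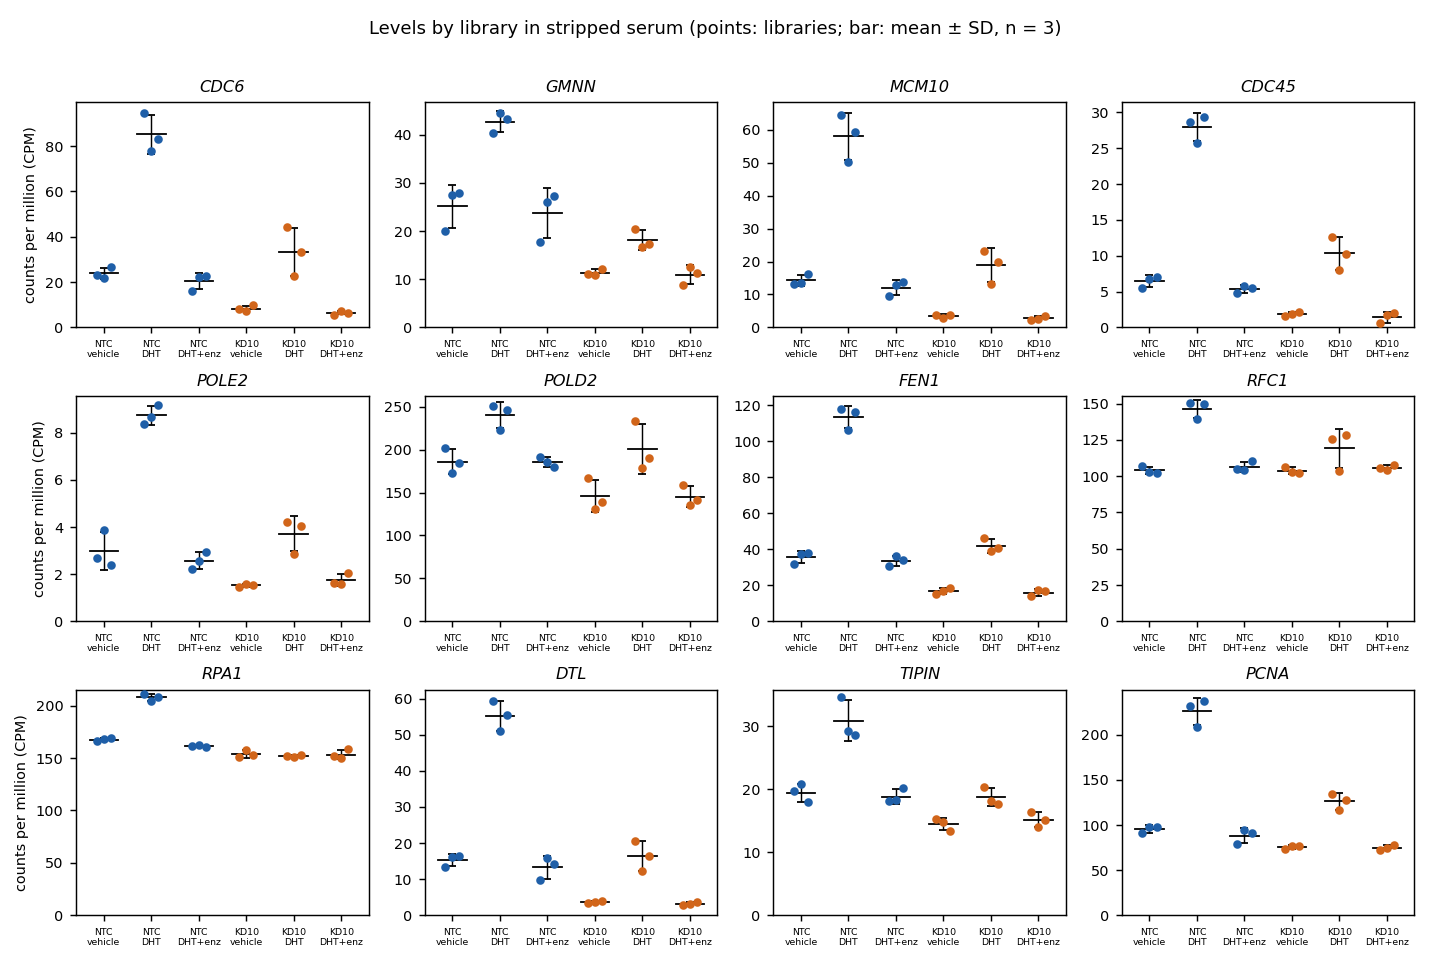
CPM of 12 of the 48 genes in each stripped-serum library (points), by group, with mean ± SD (bars, n = 3), NTC cells in blue and SIRT1 knockdown 10 cells in orange. All 12 genes are highest in NTC cells under DHT, while RPA1 in knockdown 10 cells reads 150.1 to 159 CPM under all 3 treatments.

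DHT raised nearly the whole set in NTC cells. Against vehicle, 47 of 48 genes rose and none fell (edgeR quasi-likelihood test, Benjamini-Hochberg adjusted p under 0.05, n = 3 libraries a group), where 17.4% of the 14558 genes tested rose and 12.5% fell. The median log2 fold change was 1.26, against 0.00 over all genes tested. The libraries of the 2 groups did not overlap for any of the 48, where 24.7% of all genes had every DHT library above every vehicle library. The remaining gene, RPA3, read 23.3, 24.7 and 21.6 CPM with vehicle and 28.9, 29.1 and 29.5 CPM with DHT (1.26-fold, adjusted p = 0.0871), and it passed with the replicate number as a block (adjusted p = 0.0197).

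Origin licensing genes rose by a median of 1.47 on the log2 scale, all 11 of them. CDC6, the ATPase that joins the origin complex to load the helicase, read 23.2, 21.9 and 26.4 CPM with vehicle and 94.8, 77.7 and 83.0 CPM with DHT, 3.57-fold higher (adjusted p = 3.57e-07). ORC6, the smallest origin recognition subunit, went from 10.1, 11.1 and 11.2 CPM to 37.7, 30.7 and 32.9 CPM, 3.13-fold higher. MCM6, a helicase subunit, moved from 70.8, 71.9 and 70.7 CPM to 176, 146 and 156 CPM, 2.24-fold higher. For these 3 genes the lowest DHT library stood far above the highest vehicle library. GMNN, the inhibitor of licensing, changed least of the 11, from 19.99, 27.6 and 27.9 CPM to 40.3, 44.6 and 43.3 CPM (1.70-fold, adjusted p = 0.000741), and its lowest vehicle library stood apart from the other vehicle libraries.

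Genes that switch on the helicase gave the largest changes of the set, and all 8 rose (median 1.55 on the log2 scale). CDC45, a fixed part of the moving helicase, read 5.44, 6.82 and 6.99 CPM with vehicle and 28.7, 25.7 and 29.4 CPM with DHT, a log2 fold change of 2.12 ± 0.20 (SE, adjusted p = 3.03e-07). MCM10, which is needed to start unwinding, rose 4.03-fold, from 13.3, 13.4 and 16.3 CPM to 64.4, 50.2 and 59.4 CPM. GINS3, a subunit of the GINS complex, rose 2.55-fold, from 5.98, 5.62 and 5.95 CPM to 16.4, 13.2 and 15.1 CPM. CDC7, the kinase that phosphorylates the loaded helicase, changed least of the 8, from 28.2, 27.8 and 29.3 CPM to 54.1, 55.1 and 57.0 CPM (1.95-fold).

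All 9 polymerase and primase genes rose too, with a wide range inside the complexes. POLE2, an accessory subunit of polymerase epsilon, read 2.69, 3.89 and 2.38 CPM with vehicle and 8.36, 8.69 and 9.16 CPM with DHT, 2.94-fold higher (adjusted p = 1.88e-06). POLE, the catalytic subunit of the same enzyme, rose 1.44-fold. POLD2, a subunit of polymerase delta, went from 201, 172 and 184 CPM to 251, 223 and 247 CPM, only 1.29-fold (adjusted p = 0.00869). The vehicle and DHT libraries of POLD2 were separated by a small gap, and its change lost significance when the NTC vehicle library 2 was left out (adjusted p = 0.0555). POLD1, the catalytic subunit of polymerase delta, had a log2 fold change of 1.18.

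The clamp and Okazaki group rose as a whole, 10 of 10. FEN1, the nuclease that trims Okazaki fragments, read 31.7, 37.4 and 37.9 CPM with vehicle and 118, 106 and 116 CPM with DHT, 3.18-fold higher (adjusted p = 1.60e-09). PCNA, the sliding clamp itself, went from 90.6, 97.8 and 98.1 CPM to 231, 209 and 237 CPM, 2.37-fold higher. RFC1, the large subunit of the clamp loader, rose 1.41-fold, from 107, 103 and 102 CPM to 150.1, 139 and 149.5 CPM, less than RFC2 to RFC5, whose log2 fold changes were 1.05, 1.27, 1.21 and 1.32. RPA2, the middle subunit of the single-strand binding protein, went from 49.9, 46.2 and 46.1 CPM to 81.6, 72.4 and 76.6 CPM (1.62-fold). RPA1, the large subunit, went from 166, 168 and 169 CPM to 211, 204 and 208 CPM (1.24-fold, adjusted p = 8.57e-06). The 3 RPA genes thus held 3 of the 7 smallest changes of the 48.

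All 7 genes of the fork protection group rose. CLSPN, the adaptor that signals stalled forks to CHEK1, read 12.7, 13.99 and 16.2 CPM with vehicle and 55.1, 48.7 and 53.8 CPM with DHT, 3.67-fold higher (adjusted p = 7.85e-08). DTL, the substrate receptor of the ubiquitin ligase that destroys CDT1 in S phase, rose 3.60-fold, from 13.3, 16.1 and 16.5 CPM to 59.4, 50.9 and 55.4 CPM. TIPIN, the partner of TIMELESS at the fork, changed least, from 19.7, 20.8 and 17.9 CPM to 34.7, 29.3 and 28.7 CPM (1.59-fold).

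In knockdown 10 cells, DHT raised 46 of 48 genes and lowered none, where 13.3% of all genes tested rose and 8.92% fell, and the libraries did not overlap for 45 (17.5% of all genes). The median log2 fold change was 0.82. CDC45 rose 5.42-fold, from 1.65, 1.94 and 2.11 CPM to 12.7, 8.04 and 10.2 CPM, and MCM10 5.33-fold, from 3.89, 2.93 and 3.76 CPM to 23.3, 13.3 and 19.999 CPM. DTL went from 3.52, 3.71 and 3.89 CPM to 20.6, 12.2 and 16.4 CPM, and CDC6 from 7.96, 7.30 and 9.70 CPM to 44.2, 22.8 and 33.1 CPM. In each of these 4 genes library 1 under DHT was the highest and library 2 the lowest. The median fell to 0.69 without library 1 of this group, and 44 genes then passed. Over all genes 15.4% were then called in either direction, against 22.2% with all libraries.

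RPA1 stood out in knockdown 10 cells, at 151, 158 and 153 CPM with vehicle and 152, 151 and 153 CPM with DHT, a log2 fold change of -0.02 ± 0.039 (SE, adjusted p = 0.754). RPA3 read 19.5, 22.2 and 19.6 CPM with vehicle and 17.3, 31.8 and 20.6 CPM with DHT, so that library 2 alone was high (adjusted p = 0.393). RFC1 went from 107, 103 and 102 CPM to 125, 104 and 128 CPM, with library 2 at the vehicle level, and its call (1.15-fold, adjusted p = 0.0313) was lost without any 1 of the 3 vehicle libraries or without library 1 or 3 under DHT (adjusted p = 0.0580 to 0.220). Both cell lines ranked the genes alike. Across the 48 genes the log2 fold changes with DHT in NTC and in knockdown 10 cells, which share no library, had a Pearson r of 0.903 and a Spearman rho of 0.952, and the change was larger in size in NTC cells for 43 of 48. Genes are not independent replicates, so this is a description.

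**Figure D2:**
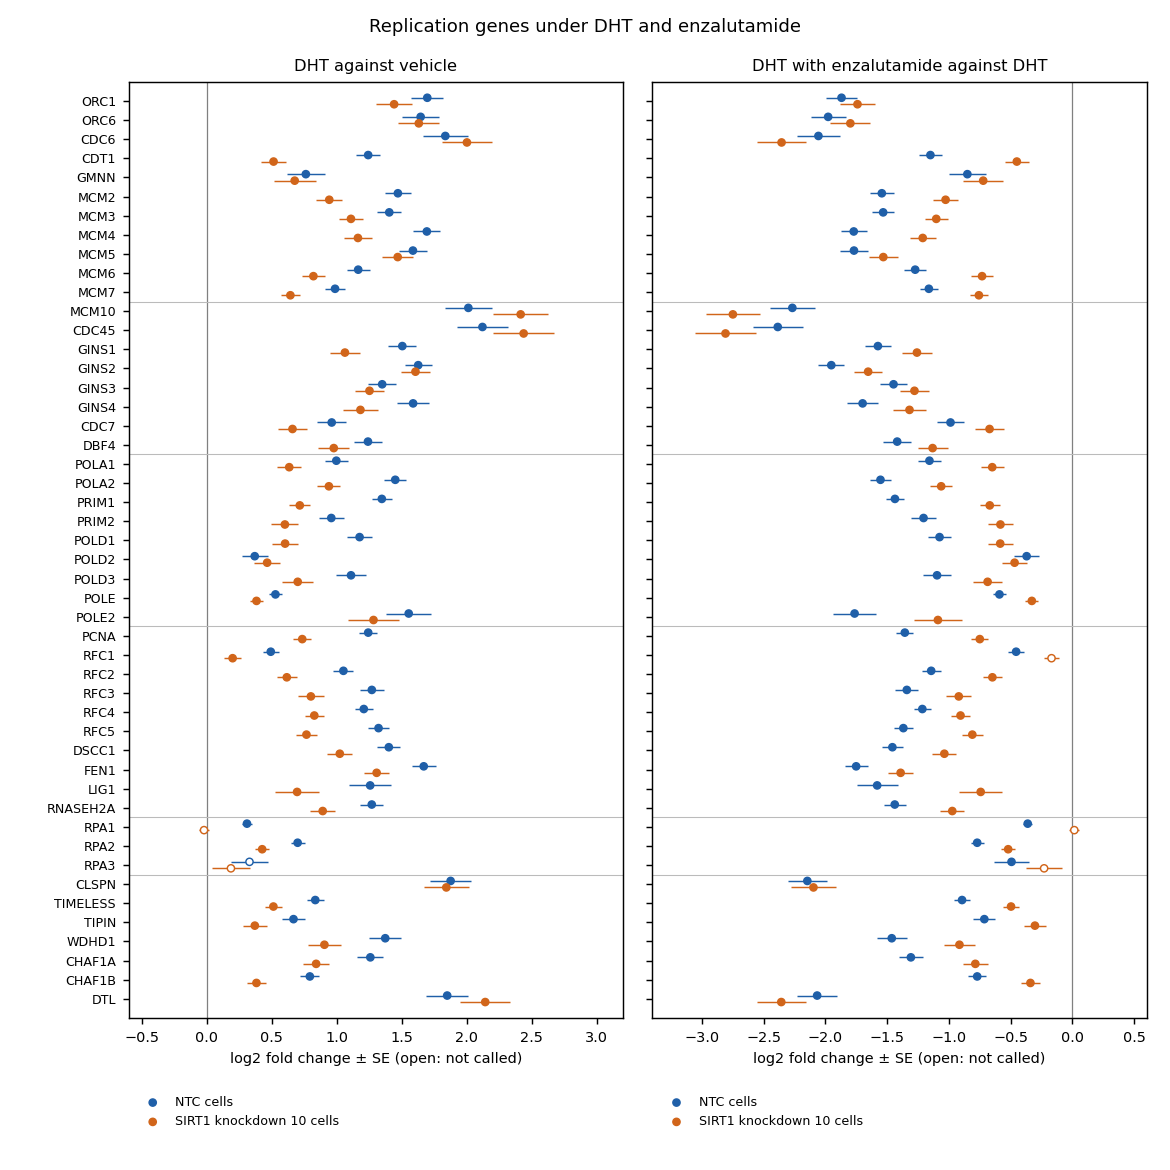
Log2 fold change ± SE of each of the 48 genes, in role order from origin licensing at the top to fork protection at the bottom, for DHT against vehicle (left) and for DHT with enzalutamide against DHT (right). Blue is NTC cells, orange is SIRT1 knockdown 10 cells, and open points did not pass an adjusted p of 0.05. The 2 panels share the DHT libraries with opposite sign, so they mirror each other in part by construction. CDC45 and MCM10 lie at the far ends and RPA1 nearest to 0 in both lines.

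Adding enzalutamide to DHT lowered the set. In NTC cells all 48 genes fell against DHT alone, where 16.6% of all genes fell and 12.6% rose, with a median log2 fold change of -1.39, and no gene's libraries overlapped (24.3% of all genes). In knockdown 10 cells 45 fell and none rose, where 12.2% of all genes fell and 8.08% rose, with a median of -0.86 (-0.76 without library 1 of the DHT group, and -0.74 with limma on TPM), and 45 did not overlap (17.1% of all genes). The NTC libraries with DHT and enzalutamide read 4.76, 5.81 and 5.49 CPM for CDC45 (5.23-fold lower than DHT), 9.47, 12.9 and 13.8 CPM for MCM10 (4.82-fold lower), and 9.98, 12.9 and 12.8 CPM for CLSPN (4.43-fold lower). These values lay within or below the range of the vehicle libraries of the same genes. CDC6 read 16.3, 22.4 and 22.8 CPM, DTL 9.73, 15.8 and 14.1 CPM, and FEN1 30.9, 36.5 and 33.7 CPM. In all 6 genes library 1 was the lowest of the 3.

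RPA3 fell 1.41-fold with enzalutamide in NTC cells, to 20.6, 22.3 and 19.3 CPM (adjusted p = 0.0131, and 0.0601 without library 3 of the enzalutamide group). In knockdown 10 cells the genes that did not pass were RPA1 (log2 fold change 0.01), RPA3 (-0.23) and RFC1 (-0.17, adjusted p = 0.0679). Of these, RFC1 passed with the replicate number as a block (adjusted p = 0.0198) and without knockdown 10 DHT library 2 (0.000949). RPA3 passed without knockdown 10 DHT library 1 (adjusted p = 0.0465). CDC45 read 0.575, 1.67 and 2.06 CPM there and fell 7.01-fold, and MCM10 read 2.11, 2.62 and 3.60 CPM and fell 6.72-fold. The lowest CDC45 value came from library 1. Across the 48 genes the enzalutamide changes in the 2 lines, which share no library, had a Pearson r of 0.910 and a Spearman rho of 0.945.

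Cells with DHT and enzalutamide were then set against cells with vehicle. No gene of the 48 passed in NTC cells by edgeR, DESeq2 or limma, and 4 had an unadjusted p under 0.05 by edgeR. None of the 14558 genes passed (0%), of which 453 had an unadjusted p under 0.05. The median log2 fold change of the 48 was -0.09, and 43 of 48 lay below 0, as did 7176 of all 14558 genes. In knockdown 10 cells 0 of 48 passed by any of the 3 tools and 0 had an unadjusted p under 0.05 by edgeR, with a median of -0.04, where 0.00687% of all genes passed by edgeR. There 34 of 48 lay below 0, as did 7158 of all 14558 genes. Libraries were fully separated for 6 genes in NTC cells, all lower (4.34% of all genes), and for 5 in knockdown 10 cells, 3 lower (4.61%) and 2 higher (4.79%).

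Stretches of 6 promoters are printed as examples and do not stand for the whole set. Those of MCM6, CDT1, DTL, PCNA and RFC3 hold an E2F match and that of RFC1, which moved little, does not. RefSeq promoter windows (GRCh38.p14, 250 bases before to 50 after the start of the gene) were at hand for 41 of the 48 genes. Matches to an E2F site (TTTCCCGC, TTTGGCGC, TTTCGCGC or TTTGCCGC, either strand) or to CCAAT (either strand) are in capitals. Each stretch runs 5′ to 3′ on the strand of its gene and ends before the start site. In MCM6, 2 pairs of E2F matches overlap each other.
MCM6 (chr2:135876484-135876603, minus strand): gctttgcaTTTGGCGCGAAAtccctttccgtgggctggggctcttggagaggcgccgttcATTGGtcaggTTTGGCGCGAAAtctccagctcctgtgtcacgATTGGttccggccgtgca
CDT1 (chr16:88803689-88803788, plus strand): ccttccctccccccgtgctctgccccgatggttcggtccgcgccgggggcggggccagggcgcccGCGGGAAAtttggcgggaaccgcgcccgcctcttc
DTL (chr1:212035648-212035747, plus strand): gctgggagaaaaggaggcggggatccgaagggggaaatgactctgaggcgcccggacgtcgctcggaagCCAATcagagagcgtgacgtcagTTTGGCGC
PCNA (chr20:5126623-5126782, minus strand): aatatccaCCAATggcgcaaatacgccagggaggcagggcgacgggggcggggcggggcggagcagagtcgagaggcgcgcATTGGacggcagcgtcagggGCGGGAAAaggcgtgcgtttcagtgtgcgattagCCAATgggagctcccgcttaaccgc
RFC3 (chr13:33818049-33818148, plus strand): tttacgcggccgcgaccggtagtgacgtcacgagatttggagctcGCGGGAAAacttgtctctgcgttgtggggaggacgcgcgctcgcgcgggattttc
RFC1 (chr4:39366363-39366462, minus strand): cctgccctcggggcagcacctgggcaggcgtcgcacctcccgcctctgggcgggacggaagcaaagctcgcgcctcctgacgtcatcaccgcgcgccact
An E2F match was present in 21 of the 41 genes (51.2%), against 3.99% of the 27305 genes with a window. By role these were 7 of 9 licensing genes, 4 of 7 of helicase activation, 4 of 8 polymerase and primase genes, 3 of 9 clamp and Okazaki genes, 0 of 1 RPA gene and 3 of 7 fork genes. CCAAT matched in 25 of 41 (61.0% against 39.7%) and GGGCGG in 31 (75.6% against 48.3%). The cell cycle homology elements TTTGAA and TTCGAA matched in 2, MCM6 and DBF4 (4.88% against 19.5%). A match is a run of letters and not a bound site. The RFC1 stretch holds neither motif, but the RFC1 window has a CCAAT match farther from the start, at position -188. No E2F match was found in the windows of CDC45, MCM10, ORC6, ORC1 and FEN1, which rose more with DHT than RFC1, while POLE, which rose 1.44-fold, has one.

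Knockdown 10 lowered the set under all 3 treatments in stripped serum. With vehicle, 44 of 48 genes were lower than in NTC cells and none higher, where 19.1% of all genes were lower and 15.5% higher, with a median log2 fold change of -0.59 and no overlap between libraries for 45 (25.1% of all genes). Under DHT, 47 were lower and none higher, where 23.5% of all genes were lower and 19.5% higher, with a median of -1.02 and no overlap for 46 (25.2%). With DHT and enzalutamide, 39 were lower and none higher, where 19.2% of all genes were lower and 15.4% higher, with a median of -0.57 and no overlap for 43 (25.8%). Medians over all genes were 0.00 in each. These comparisons do not share libraries with each other.

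Genes of licensing, activation and CDT1 turnover differed most between the lines. MCM10 was 4.07-fold lower with vehicle, 3.08-fold under DHT (adjusted p = 1.14e-06) and 4.30-fold with DHT and enzalutamide. DTL was 4.13-fold, 3.37-fold and 4.13-fold lower in the same order. CDC45 was 3.38-fold, 2.71-fold and 3.64-fold lower, and CDC6 2.87-fold, 2.56-fold and 3.15-fold lower. No knockdown 10 library of these 4 genes reached an NTC library of the same treatment. ORC6 read 4.35, 3.35 and 4.58 CPM with vehicle and 15.9, 9.89 and 12.4 CPM under DHT in knockdown 10 cells, 2.63-fold and 2.66-fold lower than NTC cells. GMNN read 11.02, 10.9 and 12.2 CPM with vehicle and 20.5, 16.7 and 17.3 CPM under DHT, 2.22-fold and 2.35-fold lower (adjusted p = 2.32e-05 and 4.55e-06).

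CDT1, the loading factor that GMNN inhibits, differed from its inhibitor. It read 10.6, 10.8 and 11.9 CPM in NTC and 10.5, 8.61 and 10.4 CPM in knockdown 10 cells with vehicle (adjusted p = 0.174), so the 2 groups were separated only by the narrowest of gaps. Under DHT it read 27.6, 24.1 and 27.0 CPM in NTC and 15.2, 13.3 and 13.7 CPM in knockdown 10 cells, 1.87-fold lower (adjusted p = 5.16e-07). With DHT and enzalutamide the values were 10.5, 12.8 and 12.2 CPM against 10.5, 10.1 and 10.2 CPM, which overlapped (adjusted p = 0.113). CDT1 passed there without NTC library 1 of the enzalutamide group (adjusted p = 0.0462).

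MCM6 and GINS3 differed least under DHT within their roles. MCM6 was 1.39-fold lower with vehicle (52.4, 49.4 and 51.5 CPM in knockdown 10 cells), 1.77-fold lower under DHT (106, 77.9 and 86.8 CPM) and 1.21-fold lower with DHT and enzalutamide (54.0, 53.8 and 55.3 CPM against 60.3, 69.0 and 68.6 CPM). That last call (adjusted p = 0.0220) was lost without NTC library 2 or 3 or knockdown 10 library 1 or 2 of the enzalutamide groups (0.0942, 0.0802, 0.0639 and 0.0677). GINS3 under DHT stood at 10.1, 8.33 and 9.61 CPM in knockdown 10 cells, with a log2 fold change of -0.67. CDC7 was 2.01-fold lower under DHT, at 32.3, 21.5 and 29.0 CPM, library 2 being the lowest.

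Among polymerase genes POLE2 was 1.95-fold lower with vehicle (1.44, 1.58 and 1.55 CPM) and 2.35-fold lower under DHT (4.23, 2.86 and 4.04 CPM). With DHT and enzalutamide it was 1.48-fold lower, a call (adjusted p = 0.0338) lost without either of NTC libraries 2 and 3 or knockdown 10 libraries 1 and 2 of those groups (0.0726 to 0.140). POLD2 had log2 fold changes of -0.35, -0.26 and -0.35 in the 3 treatments, and each call was lost without at least 1 single library (adjusted p up to 0.0717 with vehicle and 0.0578 with DHT and enzalutamide). Under DHT it read 234, 179 and 191 CPM in knockdown 10 cells, library 1 of which lay inside the NTC range, and the call (adjusted p = 0.0435) was lost without NTC library 1 or 3 or knockdown 10 library 2 or 3 of the DHT groups (0.108 to 0.201). POLD3, another subunit of polymerase delta, lost its call without any 1 of 5 libraries with vehicle (0.0724 to 0.173) and of 5 with DHT and enzalutamide (0.0678 to 0.247). POLA1, PRIM2 and POLE were lower with vehicle and under DHT and did not pass with DHT and enzalutamide (log2 fold changes -0.19, -0.18 and -0.11). Of these, PRIM2 passed there without NTC library 1 of the enzalutamide group (adjusted p = 0.0490).

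FEN1 led the clamp and Okazaki group, at 15.2, 17.1 and 18.5 CPM with vehicle and 46.5, 38.9 and 40.5 CPM under DHT in knockdown 10 cells, 2.10-fold and 2.70-fold lower than NTC cells. RFC1 was level with vehicle, at 107, 103 and 102 CPM in both lines after rounding, and 1.23-fold lower under DHT (adjusted p = 0.00104). LIG1, the ligase that seals Okazaki fragments, read 7.83, 10.1 and 11.1 CPM in NTC and 6.30, 9.67 and 6.79 CPM in knockdown 10 cells with vehicle, which overlapped (adjusted p = 0.125). The adjusted p was 0.0141 when the replicate number was blocked and 0.0225 without knockdown 10 vehicle library 2. Under DHT LIG1 was 1.88-fold lower. PCNA was 1.26-fold lower with vehicle (73.5, 77.0 and 77.2 CPM), 1.79-fold lower under DHT (135, 117 and 127 CPM) and 1.17-fold lower with DHT and enzalutamide, the last a call (adjusted p = 0.0156) lost without NTC library 2 or 3 or knockdown 10 library 1 of those groups (0.0615 to 0.107).

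The single-strand binding genes moved least between the lines. RPA1 was 1.09-fold lower with vehicle, a call (adjusted p = 0.0205) lost without NTC library 2 or 3 or any 1 knockdown 10 library but number 2 (0.0753 to 0.110), and 1.37-fold lower under DHT (adjusted p = 9.20e-08). RPA2 read 40.5, 40.7 and 41.4 CPM with vehicle and 56.2, 52.9 and 55.5 CPM under DHT in knockdown 10 cells, 1.16-fold and 1.40-fold lower. RPA3 did not pass in any treatment, with log2 fold changes of -0.18, -0.33 and -0.06. Under DHT it passed with the replicate number as a block (adjusted p = 0.0130). It also passed there without knockdown 10 DHT library 2, the high one (log2 fold change -0.62, adjusted p = 3.16e-05). In the fork group CLSPN was 2.60-fold lower with vehicle (5.45, 4.87 and 6.23 CPM) and 2.66-fold lower under DHT (25.1, 14.6 and 19.9 CPM). TIPIN was 1.34-fold lower with vehicle (15.2, 14.9 and 13.4 CPM) and 1.65-fold lower under DHT (20.4, 18.2 and 17.7 CPM).

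**Figure D3:**
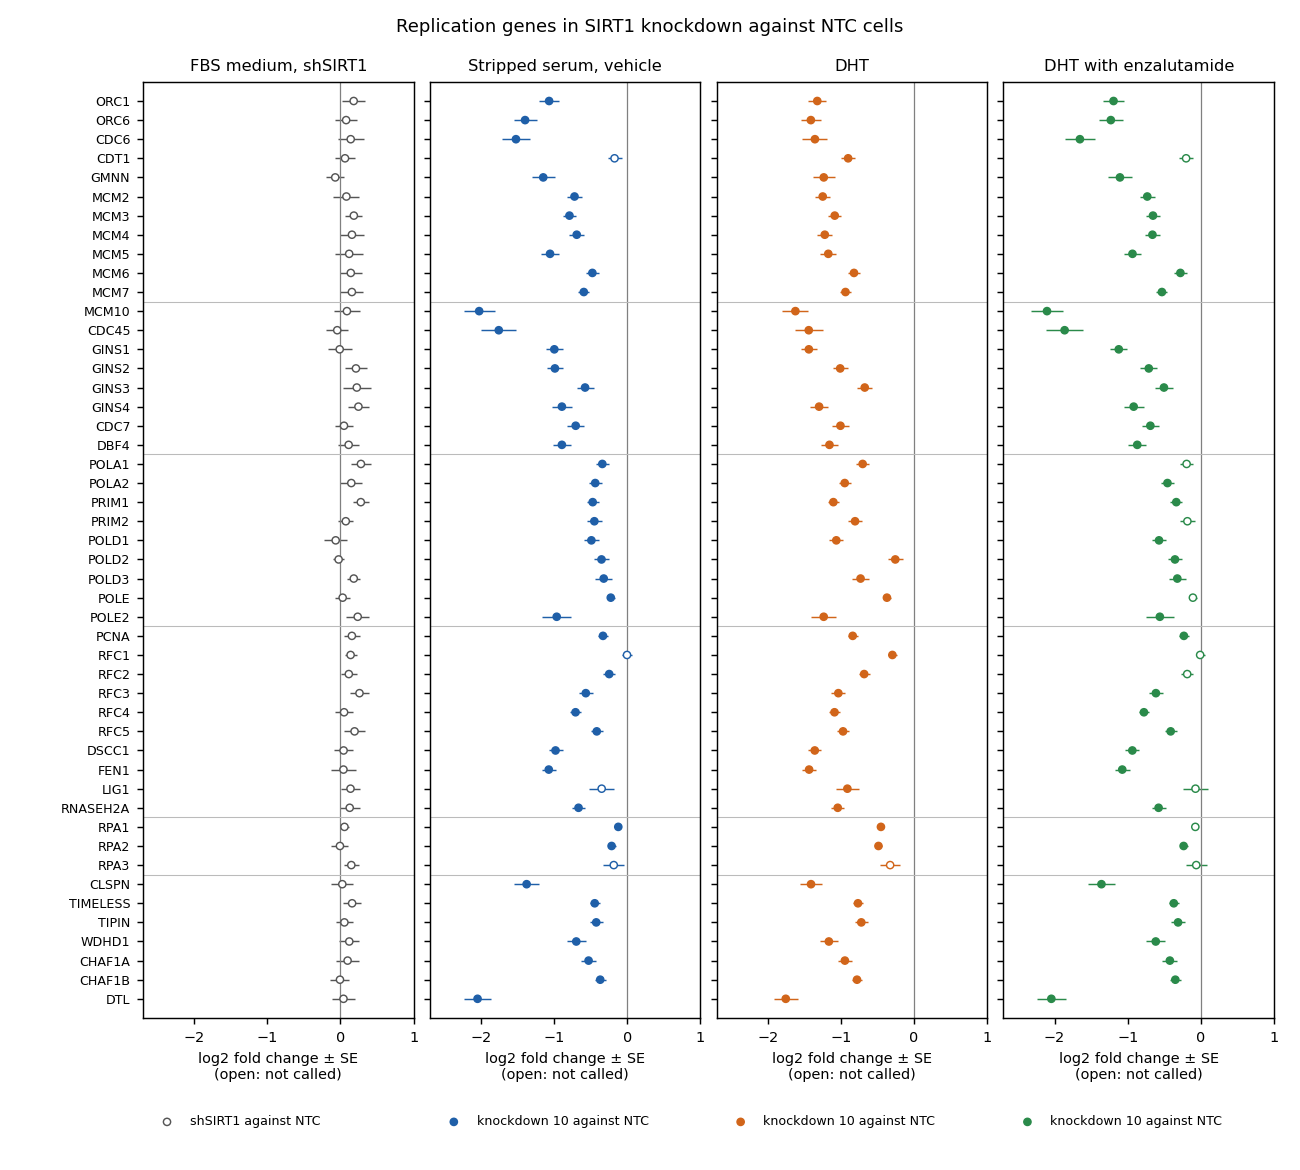
Log2 fold change ± SE of SIRT1 knockdown against NTC cells for the 48 genes in 4 settings, from left to right FBS medium (shSIRT1) and stripped serum with vehicle, with DHT and with DHT and enzalutamide (knockdown 10). Open points did not pass an adjusted p of 0.05. All 48 FBS points are open and lie between -0.07 and 0.28, while 44, 47 and 39 points in the other panels are filled and below 0.

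The genes that DHT moved most in NTC cells also differed most between the lines where the 2 contrasts share no library. Across the 48 genes, the DHT change in NTC cells and the knockdown change with DHT and enzalutamide had a Pearson r of -0.759 and a Spearman rho of -0.776. The enzalutamide change in NTC cells and the knockdown change with vehicle gave 0.805 and 0.791. These describe 48 genes that share depth and regulation, and carry no p.

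In FBS medium shSIRT1 cells did not differ from NTC cells in the same way. By edgeR 0 of 48 genes passed, where 2.71% of the 14329 genes tested did. DESeq2 and limma also called 0, where they called 3.4% and 1.7% of all genes. By edgeR 1 gene, PRIM1, had an unadjusted p under 0.05, as did 2423 of all 14329 genes. The median log2 fold change was 0.12, and 41 of 48 lay above 0, as did 7381 of all 14329 genes. The libraries of the 2 groups overlapped for all 48 genes, while 12.1% of all genes were fully lower and 10.5% fully higher. MCM10 read 64.3, 62.5 and 49.2 CPM in NTC and 69.5, 73.1 and 44.5 CPM in shSIRT1 cells, and DTL 49.9, 48.6 and 41.8 CPM against 51.8, 56.9 and 35.7 CPM. In both genes and both groups library 3 was the lowest. PRIM1, the catalytic primase subunit, read 28.2, 31.8 and 28.8 CPM in NTC and 39.5, 38.5 and 29.7 CPM in shSIRT1 cells (1.21-fold, adjusted p = 0.245).

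With the replicate number as a block, 9 genes rose in shSIRT1 cells and none fell, where 4.47% of all genes rose and 7.22% fell. In FBS the numbers 1 and 2 correlated as highly across numbers (0.184 and 0.213) as within them (0.193 and 0.194), so by this measure only library 3 stood apart. The genes were MCM3, MCM4, MCM7, GINS2, GINS4, POLA1, PRIM1, PCNA and RFC5, with log2 fold changes of 0.16 to 0.28 and adjusted p-values of 0.0155 to 0.0479. Without both libraries numbered 3, 18 genes rose, where 23.8% of all genes were called in either direction. With libraries 1 and 2 of each group summed 0 rose, where only 0.296% of all genes were called in either direction. The count was 3 without shSIRT1 library 3 alone, where 2.93% of all genes were called in either direction.

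The knockdown change itself differed between the 2 settings. Fitting the 12 libraries of FBS and of vehicle together, the change was lower in stripped serum than in FBS for 33 of 48 genes and higher for none, where 6.29% of 15345 genes were lower and 7.47% higher, with a median difference of -0.71 on the log2 scale. MCM10 (-2.07 ± 0.25, SE), DTL (-2.05), CDC45 (-1.67) and CDC6 (-1.62) differed most. With the replicate number as a block 11 more genes passed, namely GINS3, POLA2, POLD1, POLD2, POLE, RFC2, LIG1, RPA3, TIPIN, CHAF1A and CHAF1B. Over all genes 25.7% were then called in either direction, against 13.8% without the block. Knockdown line, medium and library set changed together and cannot be told apart.

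Whether the 2 lines responded differently to DHT was tested as an interaction. The response was smaller in knockdown 10 cells for 4 of 48 genes, and larger for none, where 0.158% of all genes were lower and 0.0412% higher, and 31 of 48 had an unadjusted p under 0.05, as did 1598 of all 14558 genes. The median difference was -0.34 on the log2 scale, against 0.00 over all genes. CDT1 differed by -0.73 ± 0.13 (SE, adjusted p = 0.0293), PRIM1 by -0.63 (0.0235), PCNA by -0.51 (0.0394) and RPA1 by -0.33 (0.0235). With the replicate number as a block 18 genes passed, all lower, where 2.93% of all genes were called in either direction. Same-numbered libraries correlated above 0.1 in 17 of the 18 pairs of this comparison (lowest 0.0207). DESeq2 called 11 genes, all lower, where it called 1.07% of all genes. When 1 library at a time was left out, 0.034% to 0.612% of all genes were called in either direction. The share was 0.476% without knockdown 10 DHT library 1. The count of 4 members ranged from 0 to 8 in these settings. It was 0 without NTC vehicle library 1 or 2 or NTC DHT library 3, 1 without NTC DHT library 1 or knockdown 10 vehicle library 3, 2 without NTC vehicle library 3, knockdown 10 vehicle library 1 or knockdown 10 DHT library 3, and 8 without knockdown 10 DHT library 1.

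For enzalutamide, the fall was smaller in knockdown 10 cells for 5 of 48 genes, and larger for none, where 0.268% of all genes were higher and 0.0824% lower, and 31 had an unadjusted p under 0.05, as did 1728 of all 14558 genes. These were PRIM1 (0.77 ± 0.11, SE, adjusted p = 0.00527), CDT1 (0.70), PCNA (0.61), RFC5 (0.56) and RPA1 (0.38). With the replicate number as a block 23 genes passed, all higher, where 2.29% of all genes were higher and 1.64% lower, among them LIG1 (0.83), PRIM2 (0.63), MCM4 (0.56) and MCM6 (0.54). The count was 3 without any 1 of NTC DHT libraries 1 and 3, NTC enzalutamide library 1, knockdown 10 DHT library 3 and knockdown 10 enzalutamide libraries 2 and 3, and 14 without knockdown 10 DHT library 1. The settings that gave 3 called 0.109% to 0.211% of all genes in either direction, and the setting that gave 14 called 0.707%. The 2 interactions share the DHT libraries, so they are not independent. MCM10, CDC45, CDC6 and DTL, whose responses were among the largest in both lines, had interactions with DHT of 0.40, 0.32, 0.17 and 0.29, none of which passed (adjusted p = 0.655 to 0.884).

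Knockdown 10 cells under DHT can be placed against NTC cells with vehicle by level. For 43 of 48 genes the mean of knockdown 10 cells under DHT was the higher, but libraries were fully separated for only 20 genes that were higher and 1 that was lower, and overlapped for 27. Over all genes tested, 21.4% were fully higher and 20.4% fully lower. CDC45 had the highest ratio of means, 1.61, and GMNN the lowest, 0.722. The other genes with a ratio below 1 were CDC7 (0.970), RPA1 (0.905), RPA3 (0.999) and TIPIN (0.963).

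Levels of the 6 helicase ring subunits were compared in TPM, which is scaled by transcript length. MCM5 was the lowest and MCM7 the highest of MCM2 to MCM7 in all 8 groups. In NTC cells MCM5 averaged 15.97 TPM and MCM7 72.4 TPM with vehicle, a ratio of 4.53, and 48.4 and 146 TPM under DHT, a ratio of 3.02. In knockdown 10 cells the ratio was 6.21 with vehicle, 3.50 under DHT and 6.001 with DHT and enzalutamide, and in FBS it was 3.23 in NTC and 3.31 in shSIRT1 cells. The subunits of the ring, which assemble in equal numbers, thus stood at unequal RNA levels, and the ratio was lower under DHT than with vehicle in both lines.

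**Figure D4:**
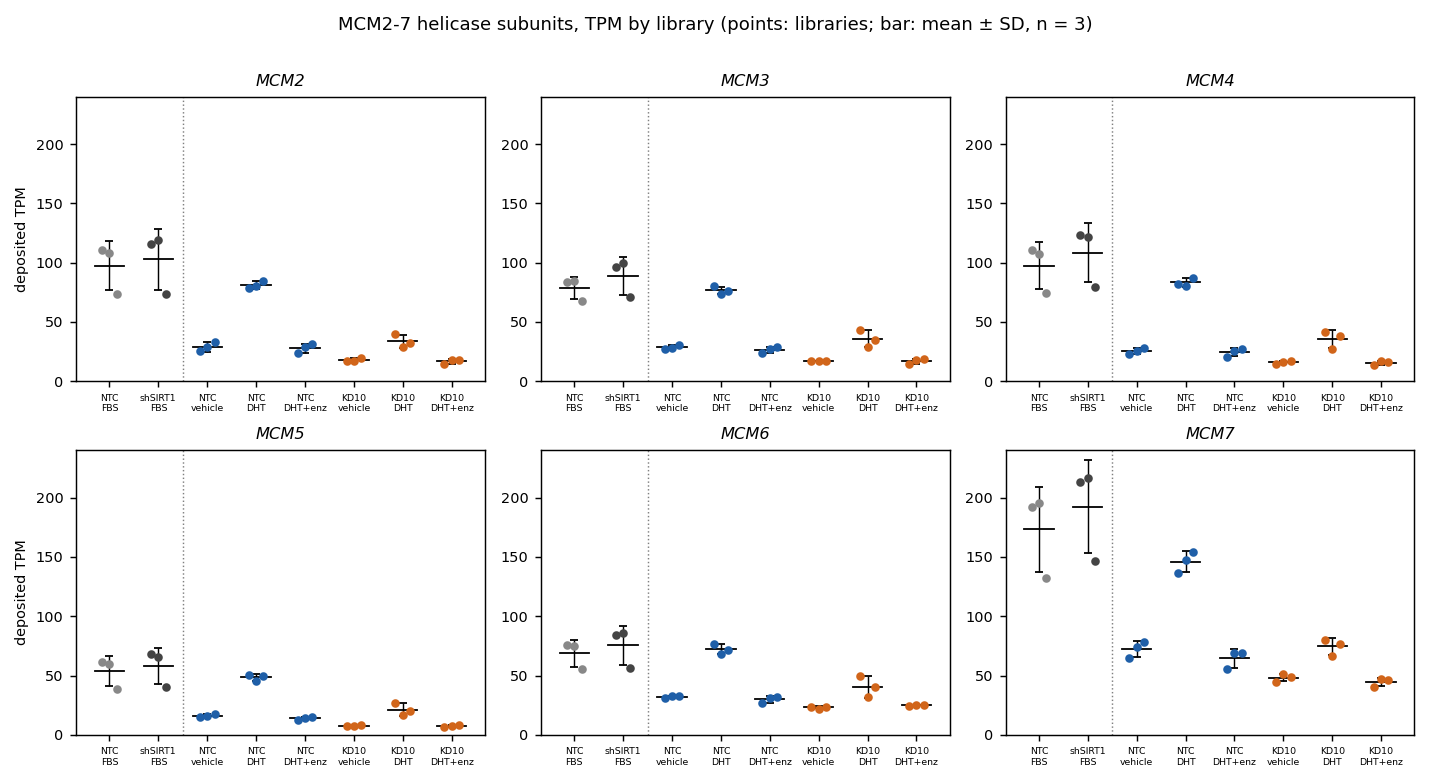
Deposited TPM of MCM2 to MCM7 in each library (points) with mean ± SD (bars, n = 3) for all 8 groups, with a dotted line between the FBS libraries and the stripped-serum libraries, which were quantified differently. MCM7 is the highest and MCM5 the lowest subunit in every group, and FBS library 3 lies below libraries 1 and 2 in each panel.

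Ratios between partner genes, chosen after their values were seen and given with no test, varied with treatment and line. The TPM of CDT1 over that of its inhibitor GMNN was 0.213, 0.158 and 0.171 in NTC cells with vehicle and 0.383, 0.319 and 0.343 in knockdown 10 cells with vehicle. Under DHT it was 0.272, 0.217 and 0.250 in NTC and 0.298, 0.319 and 0.319 in knockdown 10 cells, so every knockdown 10 library lay above every NTC library in both treatments. Within the clamp loader, RFC3 over RFC1 went from a mean of 0.332 to 0.569 with DHT in NTC cells and from 0.223 to 0.341 in knockdown 10 cells.

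POLE2 over POLE went from 0.254 ± 0.0689 (SD, n = 3) to 0.520 ± 0.0134 with DHT in NTC cells and from 0.153 ± 0.00788 to 0.288 ± 0.0690 in knockdown 10 cells. POLD1 over POLD2 went from 0.0388 ± 0.00707 to 0.0671 ± 0.00469 in NTC cells, and from 0.0350 ± 0.00157 to 0.0387 ± 0.00445 in knockdown 10 cells, where the libraries of the 2 treatments overlapped. RPA2 over RPA1 was 0.779 ± 0.0404 with vehicle and 1.03 ± 0.0467 under DHT in NTC cells, and 0.733 ± 0.0194 and 0.999 ± 0.0281 in knockdown 10 cells. The 2 lines came close to each other in this last ratio.

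**Figure D5:**
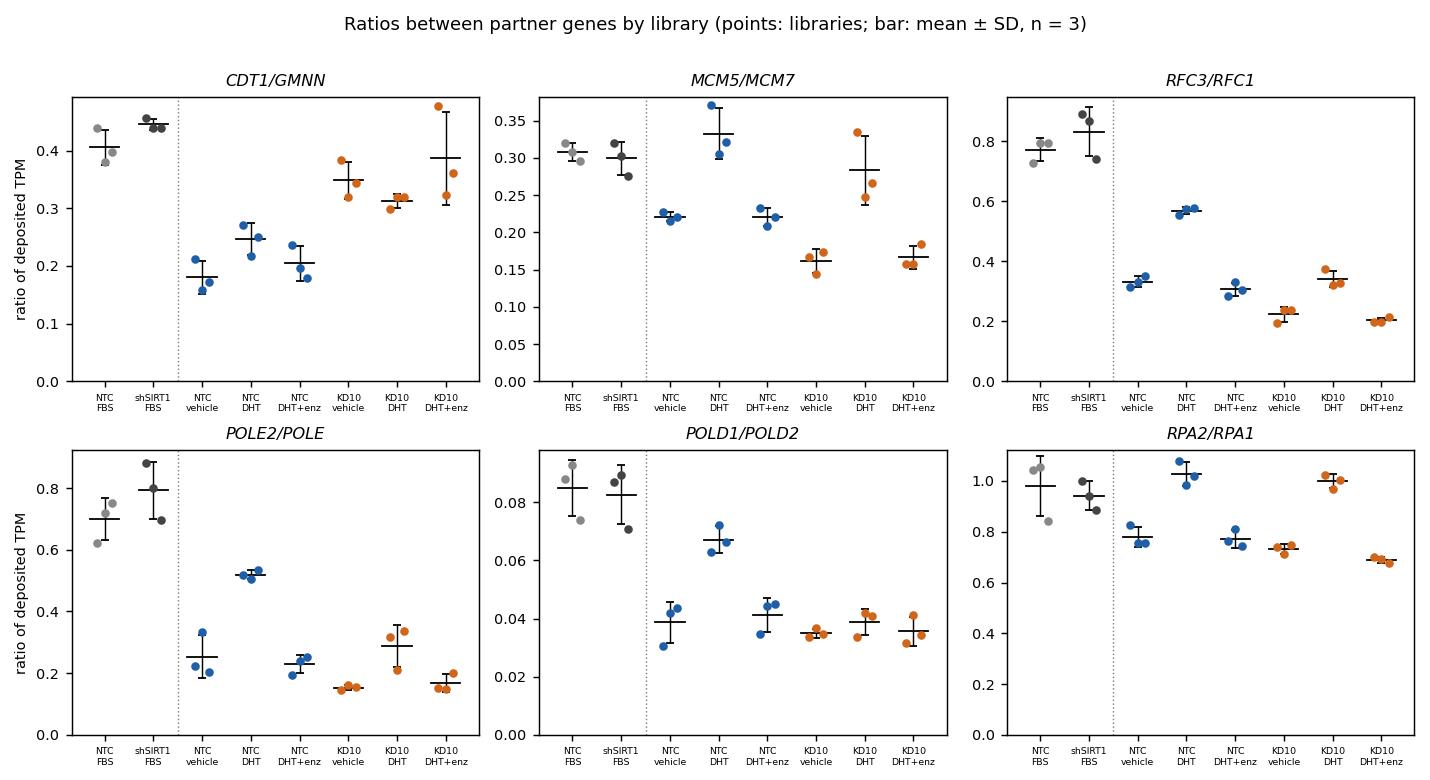
Ratio of deposited TPM between 6 pairs of partner genes in each library (points) with mean ± SD (bars, n = 3), FBS groups left of the dotted line. CDT1 over GMNN is higher in knockdown 10 than in NTC cells under each treatment in stripped serum, while the other 5 ratios have their highest stripped-serum mean in NTC cells under DHT.

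Neighbouring genes of the pathway were taken from 4 lists chosen by function, also with earlier results of these data known. Their counts stand beside the shares of all genes given above (17.4% rose and 12.5% fell with DHT in NTC cells, and 23.5% were lower and 19.5% higher in knockdown 10 cells under DHT). Of 14 other origin factors, 10 rose with DHT in NTC cells and 0 fell, with a median log2 fold change of 0.75, and 10 were lower in knockdown 10 cells under DHT and 0 higher. C15orf42, the symbol in the files for the origin firing factor treslin, rose 3.86-fold with DHT and was 2.85-fold lower in knockdown 10 cells under DHT, and MCM8, a helicase of repair and meiosis, rose 2.46-fold and was 2.26-fold lower. ORC3, a core origin recognition subunit, was 1.19-fold higher in knockdown 10 cells with vehicle (adjusted p = 0.00912). Of 22 other fork and chromatin factors, 15 rose and 1 fell with DHT in NTC cells (median 0.70), and 15 were lower and 2 higher in knockdown 10 cells under DHT. They include ASF1B, a histone chaperone (3.81-fold higher and 2.67-fold lower), and TONSL, which reads new histones at forks (3.07-fold higher and 2.34-fold lower).

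Of 22 genes of S phase entry and checkpoint, 17 rose with DHT in NTC cells and 0 fell (median 0.84), and 19 were lower and 1 higher in knockdown 10 cells under DHT. E2F1, the activating factor of this programme, rose 3.87-fold and was 2.83-fold lower in knockdown 10 cells under DHT, and CDC25A, a phosphatase that activates CDK2, rose 2.76-fold and was 2.65-fold lower. Of 13 repair and translesion polymerases, 4 rose and 1 fell with DHT in NTC cells (median 0.06), and 5 were lower and 3 higher in knockdown 10 cells under DHT. POLQ, the polymerase of end joining by short homology, rose 3.37-fold and was 2.19-fold lower. In FBS medium 0 genes of the 4 lists passed by edgeR, where 2.71% of all genes did. In these lists 3 genes in all had an unadjusted p under 0.05, as did 2423 of all 14329 genes.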

How the data were processed

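RNA from LNCaP cells (TRIzol, about 500 ng, stranded mRNA kit) was sequenced and quantified by the authors. Per the submitters' processing notes, CASAVA 1.8.2, RSEM 1.2.31 and the hg19 build were used, while the aligner and the strand setting of the counting are not given in the sources used here. The deposited tables give an expected count, a TPM value and an FPKM value per gene and library, of which FPKM was not used for any result. Reads of PCNA and PRIM2 may be shared with near-identical copies, and reads from overlapping antisense genes cannot be told apart.

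Expected counts were rounded to whole numbers and tested in R 4.3.3 with edgeR 4.0.16 (quasi-likelihood, TMM scaling, low-count filter by edgeR's filterByExpr). The FBS fit held 6 libraries and 14329 genes, the stripped-serum fit 18 libraries and 14558 genes, and the fit over FBS and vehicle together 12 libraries and 15345 genes. All 48 members were tested in each. P-values were adjusted by the Benjamini-Hochberg method over all genes of a fit, and a gene was called at an adjusted p under 0.05, in 13 comparisons. CPM values use the TMM-scaled library size and were computed separately for FBS and stripped serum. Levels between genes were compared in the deposited TPM, with no test. Alternatives were DESeq2 1.42.0 (its size factors, and its test), limma 3.58.1 on log2(TPM + 1), no filter, only the groups compared, the replicate number as a block, and leaving out libraries.

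Members and lists were chosen with earlier results of these data known. Values per library were given for the member with the largest and the smallest change of each role under DHT, between treatments in NTC cells and between lines. Other members and further values were added after they had been seen. From the pathway lists, genes were named among the called ones with the lowest adjusted p.

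Labels number the libraries of each group 1 to 3. Deviations of same-numbered libraries from their group means correlated above 0.1 in every pair of 12 comparisons (for FBS, 0.193 to 0.427), and in 17 of 18 pairs of the interaction with DHT (lowest 0.0207). In FBS, libraries 1 and 2 also correlated across numbers (0.184 and 0.213), so only library 3 stood apart there. The pairing is read from the data and not from the labels. Values with the block are given beside results they change, also for the interaction with DHT, where 1 pair missed the threshold. Promoter stretches are from RefSeq, GRCh38.p14, and no coordinates were moved between builds.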

Additional observations from a re-analysis of the deposited data

Results flagged for a closer look

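The change between knockdown and NTC cells differed between stripped serum with vehicle (knockdown 10) and FBS (shSIRT1) for 33 of the 48 genes, by the test of that difference in the joint edgeR fit (adjusted p under 0.05, n = 3 libraries a group). Over the 15345 genes tested, the change was lower in stripped serum for 6.29% and higher for 7.47%. All 33 differences, on the log2 scale, were below 0. In licensing they were -1.21 for ORC1, -1.43 for ORC6, -1.62 for CDC6, -1.04 for GMNN, -0.76 for MCM2, -0.93 for MCM3, -0.81 for MCM4, -1.13 for MCM5, -0.58 for MCM6 and -0.71 for MCM7. In helicase activation they were -2.07 for MCM10, -1.67 for CDC45, -0.95 for GINS1, -1.16 for GINS2, -1.10 for GINS4, -0.71 for CDC7 and -0.96 for DBF4. Polymerase and primase genes gave -0.58 for POLA1, -0.71 for PRIM1, -0.48 for PRIM2, -0.46 for POLD3 and -1.16 for POLE2. Clamp and Okazaki genes gave -0.45 for PCNA, -0.79 for RFC3, -0.72 for RFC4, -0.57 for RFC5, -0.98 for DSCC1, -1.07 for FEN1 and -0.75 for RNASEH2A. Fork genes gave -1.36 for CLSPN, -0.56 for TIMELESS, -0.78 for WDHD1 and -2.05 for DTL. The calls of MCM2, MCM6, MCM7, POLA1, PRIM2, POLD3, PCNA and RFC5 were each lost in at least 1 fit that left out 1 library (adjusted p = 0.0505 to 0.118). Line, medium and library set changed together here and cannot be told apart.

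The response to DHT differed between knockdown 10 and NTC cells, by the edgeR interaction test, for CDT1 (-0.73), PRIM1 (-0.63), PCNA (-0.51) and RPA1 (-0.33). Over all genes 0.158% were lower and 0.0412% higher. Each of these calls was lost in at least 1 fit that left out 1 library (adjusted p = 0.0534 to 0.105). The response to enzalutamide differed for PRIM1 (0.77), CDT1 (0.70), PCNA (0.61), RFC5 (0.56) and RPA1 (0.38), where 0.268% of all genes were higher and 0.0824% lower. When 1 library was left out, RFC5 (adjusted p up to 0.122) and CDT1 (up to 0.0882) lost their calls in several fits. PRIM1, PCNA and RPA1 kept theirs. Both interactions use the same DHT libraries.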

How the results depend on the processing

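Of 8448 values for single genes under the alternatives, 8092 kept their side of the threshold, 205 lost a call and 151 gained one. Of these values, 0 changed direction with a call in the main fit or in the alternative. Changes of direction in genes called in neither were not counted. Shares of all genes called in either direction are in brackets below. Leaving out 1 library at a time gave 40 to 43 called genes for knockdown 10 with vehicle (27.4 to 31.4%). It gave 46 to 47 under DHT (35.8 to 43.4%) and 34 to 41 with DHT and enzalutamide (26.5 to 30.3%). For DHT it gave 46 to 47 in NTC (21 to 27%) and 44 to 46 in knockdown 10 cells (15.4 to 25.5%). For enzalutamide it gave 47 to 48 in NTC (20.8 to 26.3%) and 44 to 46 in knockdown 10 cells (14.1 to 24.6%). For DHT with enzalutamide against vehicle it gave 0 to 0 (0 to 0.0136%).

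Counts that moved by over 1.5 times were those of the FBS comparison, the interactions and the difference between settings. Shares of all genes called, in either direction, are in brackets. In FBS the count of 0 (2.71%) became 18 without both libraries numbered 3 (23.8%) and 0 to 3 when 1 library was left out (0.709 to 6.41%). The interaction with DHT (4 called, 0.199%) gave 11 with DESeq2 (1.07%), 0 with limma (0.0481%), 0 with only the groups compared (0.0487%) and 0 to 8 when 1 library was left out (0.034 to 0.612%). The interaction with enzalutamide (5 called, 0.35%) gave 20 with DESeq2 (1.76%), 2 with limma (0.165%), 1 with only the groups compared (0.0349%) and 3 to 14 when 1 library was left out (0.109 to 1.2%). The difference between settings (33 called, 13.8%) gave 21 with limma (10.3%) and 25 to 40 when 1 library was left out (9.14 to 15.3%). With the replicate number as a block, 9 genes were called in FBS (11.7%), 18 for the interaction with DHT (2.93%) and 23 for that with enzalutamide (3.94%). The block also added 11 genes to the difference between settings (44, with 25.7% of all genes), LIG1 with vehicle, RPA3 in both DHT comparisons named above and RFC1 for enzalutamide in knockdown 10 cells, and changed no other call. The cause of these moves was not tested. The median for DHT in knockdown 10 cells became 0.69, and that for enzalutamide -0.76, without DHT library 1 (-0.74 with limma).

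POLE2 and CDC45 had the lowest CPM of the genes named and rest on few counts in knockdown 10 cells. The planned search for protein motifs was not run because no protein sequences were used here.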
